A study of Mus musculus with 2 samples.

Results

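The genes described here are 10 genes of the antioxidant response that the transcription factor NRF2 directs: Nfe2l2, Keap1, Gclm, Gclc, Txnrd1, Srxn1, Nqo1, Hmox1, Sqstm1 and Slc7a11. They were chosen by name, as the rows of these symbols among the 32285 genes of the count matrices, and all 10 were found in both. The study profiled microglia of the lumbar spinal cord by droplet single-cell RNA sequencing (10x Chromium, 3′ end), with 1 library from control mice (Eif4ebp1 fl/fl, labelled WT) and 1 from 4E-BP1-cKO mice (Eif4ebp1 fl/fl:TMEM119CreERT2), which lack the translational repressor 4E-BP1 in cells that express the Tmem119 promoter. Mice of both genotypes carried the floxed Eif4ebp1 alleles, were male, received 4-hydroxytamoxifen (4-OHT) from P4 to P9 and were 8 to 10 weeks old. Control mice carried no Cre, so the presence of CreERT2 and the loss of 4E-BP1 cannot be told apart. Cells were sorted as CD45lo CD11b+ CX3CR1+, and the number of mice behind each library was not given in the sources used here.

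NRF2, the product of Nfe2l2, is held in the cytoplasm by KEAP1, which hands it to a CUL3 ubiquitin ligase for degradation. Oxidants and electrophiles modify KEAP1, and NRF2 then accumulates, enters the nucleus and pairs there with a small MAF protein. The pair binds antioxidant response elements in front of genes for glutathione synthesis, thioredoxin reduction, quinone reduction and haem breakdown. In microglia, the resident macrophages of the central nervous system, this program limits the damage from the reactive oxygen species that the cells themselves make. Since much of its control acts on the NRF2 protein, mRNA levels of Nfe2l2 do not measure NRF2 activity.

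Cells were kept where over 300 genes were detected and mitochondrial genes took less than 5% of the UMIs (unique molecular identifiers, 1 per captured RNA molecule). They numbered 1147 of 1216 barcodes in the control library and 445 of 474 in the 4E-BP1-cKO library. They held 4803562 and 1734332 UMIs, with medians of 3053 and 2776 per cell, and the libraries shared 0 barcodes. With 1 library per genotype there was no replicate and no test. Intervals below are exact 95% intervals that cover counting error only. Those of levels and ratios take each UMI as an independent draw and leave out the spread from cell to cell. A gene is called higher or lower where its UMIs per 1000000 UMIs (CPM, with 1 CPM added) differed at least 1.5-fold. None of the 8 microglial markers was at 0, and at least 3 of them were found in 91.5% of control and 87.2% of 4E-BP1-cKO cells. Cells with at least 3 markers of another type numbered 9 and 3. The libraries also differed in states of handling or activation: immediate early genes summed to 22138 CPM in the control and 30235 CPM in the 4E-BP1-cKO library, heat shock genes to 6562 and 4417 CPM, and ribosomal protein genes took 5.13% and 6.09% of UMIs. Their part in the differences below was not tested. No cell type that lacks these genes was in the sort and empty droplets were not analysed here, so background from free RNA was not measured.

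Promoter sequence, from 250 bases before to 50 bases from the start site, was at hand for 8 of the 10 genes in RefSeq (build GRCm38.p6, the assembly of mm10), with 3 promoters for Txnrd1. Gclc and Hmox1 had no entry. A set of 4 letter patterns was searched on both strands: TGACNNNGC, the core of the antioxidant response element, found in 12.4% of the 32851 mouse promoters of this length; TGANTCA, the AP-1 pattern (7.81%); TGANTCAGC, an AP-1 pattern followed by GC (1.19%), every match of which is also an AP-1 match; and TGATGNAA, read by C/EBP and ATF factors (3.97%). The response element core was present in Nfe2l2 240 bases before the start, in Gclm 134 bases before it, in 1 Txnrd1 promoter 92 bases before it and in Srxn1 28 bases after it. Srxn1 also held AP-1 patterns 102 and 45 bases before the start, the nearer one followed by GC. That nearer match, TGAGTCAGC, departs from TGACNNNGC only by a G in place of the C, and which factors bind it was not tested. Slc7a11 held the C/EBP and ATF pattern 66 and 47 bases before its start. No match was present in the windows of Keap1, Nqo1, Sqstm1 and the other Txnrd1 promoters. The sequences below are shown for the genes with a match, whole for Txnrd1, Srxn1 and Slc7a11 and as the stretch around the match for Nfe2l2 and Gclm. The whole ones were picked because pairs of these mRNAs were found in the same cell more often than depth gave. Shared regulation was not tested. Capitals mark the matched letters, which describe the sequence and are not evidence of binding.
Txnrd1, chr10:82858956-82859255, plus strand: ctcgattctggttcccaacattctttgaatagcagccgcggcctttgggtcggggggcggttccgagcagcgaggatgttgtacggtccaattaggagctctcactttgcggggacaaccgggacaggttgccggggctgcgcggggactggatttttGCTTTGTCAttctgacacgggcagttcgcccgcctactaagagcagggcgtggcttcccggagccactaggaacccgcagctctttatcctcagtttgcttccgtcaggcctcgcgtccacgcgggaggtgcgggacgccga
Srxn1, chr2:152105274-152105573, plus strand: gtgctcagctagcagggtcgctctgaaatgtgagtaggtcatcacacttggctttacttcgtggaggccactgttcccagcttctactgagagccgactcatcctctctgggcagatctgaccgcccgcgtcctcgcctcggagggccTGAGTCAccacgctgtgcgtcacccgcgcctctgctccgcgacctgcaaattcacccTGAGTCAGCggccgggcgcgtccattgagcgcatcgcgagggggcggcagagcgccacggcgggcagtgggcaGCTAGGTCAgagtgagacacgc
Slc7a11, chr3:50443564-50443863, minus strand: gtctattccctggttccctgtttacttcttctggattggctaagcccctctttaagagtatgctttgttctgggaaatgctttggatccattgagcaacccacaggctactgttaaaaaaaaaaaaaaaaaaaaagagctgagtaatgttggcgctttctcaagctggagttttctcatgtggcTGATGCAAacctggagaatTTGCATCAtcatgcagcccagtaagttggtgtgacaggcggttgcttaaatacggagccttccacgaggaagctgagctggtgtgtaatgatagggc
Nfe2l2, chr2:75704875-75704913, minus strand: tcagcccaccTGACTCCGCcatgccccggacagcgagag
Gclm, chr3:122245403-122245451, plus strand: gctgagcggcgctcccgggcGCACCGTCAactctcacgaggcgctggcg

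Of the genes that regulate the pathway, Nfe2l2 had nearly the same level in both libraries and Sqstm1 was 1.2-fold higher in the 4E-BP1-cKO library, below the 1.5-fold limit. Nfe2l2 (ENSMUSG00000015839, chr2:75675513-75704663) gave 3313 UMIs, 689.7 CPM (interval 666.4 to 713.6), in the control and 1214 UMIs, 700.0 CPM (661.2 to 740.5), in the 4E-BP1-cKO library. UMIs of Nfe2l2 were found in 783 control cells (68.3%) and 303 4E-BP1-cKO cells (68.1%), and the ratio of levels lay between 0.9495 and 1.08. Keap1 (ENSMUSG00000003308, chr9:21229730-21239332), the adaptor that holds NRF2, gave 116 and 48 UMIs, 24.2 and 27.7 CPM, in 104 (9.07%) and 46 (10.3%) cells. The log2 ratio of Keap1 was 0.19, with a ratio interval of 0.801 to 1.62 that includes no difference. Sqstm1 (ENSMUSG00000015837, chr11:50200152-50210820) encodes p62, an autophagy receptor that binds KEAP1 and is itself an NRF2 target. Its level was 561.9 CPM (540.9 to 583.5; 2699 UMIs) in the control and 675.2 CPM (637.1 to 715.0; 1171 UMIs) in the 4E-BP1-cKO library, a log2 ratio of 0.26 (ratio 1.12 to 1.29). The intervals of Sqstm1 did not overlap, while its share of cells was 61.9% and 62.5%. The 5% of cells with the most Sqstm1 held 33.5% and 33.1% of its UMIs, a spread over cells that these intervals leave out.

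The genes of glutathione supply showed no difference beyond counting error apart from Gclm, where 1 cell set the value. Gclc (ENSMUSG00000032350, chr9:77754535-77794489), the catalytic subunit of the enzyme that starts glutathione synthesis, gave 1315 and 431 UMIs, 273.8 CPM in the control and 248.5 CPM in the 4E-BP1-cKO library (ratio 0.812 to 1.01), in 39.4% and 34.8% of cells. Gclm (ENSMUSG00000028124, chr3:122245487-122267215), the modifier subunit of that enzyme, gave 174 UMIs (36.2 CPM) in the control and 31 UMIs (17.9 CPM) in the 4E-BP1-cKO library, a log2 ratio of -0.98. A single control cell held 89 of the 174 Gclm UMIs (51.1%), and the next cell held 3. Without the top cell of each library, an alternative added after the values were seen, the log2 ratio of Gclm was -0.08 (ratio 0.597 to 1.46), and its share of cells was 6.19% and 6.07%. That control cell had 11393 UMIs, 7 of the 8 microglial markers, 6 UMIs of Txnrd1 and 2 of Slc7a11. Slc7a11 (ENSMUSG00000027737, chr3:50364936-50499087), the transporter that brings in cystine for glutathione, gave 144 and 48 UMIs, 29.98 and 27.7 CPM (ratio 0.652 to 1.29), in 75 (6.54%) and 28 (6.29%) cells.

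In the thioredoxin branch, Txnrd1 (ENSMUSG00000020250, chr10:82833951-82897724), which reduces thioredoxin, stood at 135.7 CPM (652 UMIs) in the control and 139.0 CPM (241 UMIs) in the 4E-BP1-cKO library, in 25.2% and 24.5% of cells (ratio 0.879 to 1.19). Srxn1 (ENSMUSG00000032802, chr2:152105524-152111376), sulfiredoxin, which repairs over-oxidised peroxiredoxins, gave 45 and 13 UMIs in 36 and 12 cells (ratio 0.396 to 1.51). Nqo1 (ENSMUSG00000003849, chr8:107388225-107403205), a quinone reductase often used to read NRF2 activity, gave 8 UMIs in 6 control cells and 2 UMIs in 2 4E-BP1-cKO cells. It stayed under the minimum of 20 UMIs over both libraries, so a difference in Nqo1 was not detectable at this depth. Hmox1 (ENSMUSG00000005413, chr8:75093618-75100593), haem oxygenase 1, was found in fewer 4E-BP1-cKO cells: 487 control cells (42.5%, 39.6 to 45.4) against 156 4E-BP1-cKO cells (35.1%, 30.6 to 39.7). After thinning every cell to 872 UMIs, which left 1058 and 375 cells and dropped 89 and 70 shallower ones, the shares were 18.4% (16.1 to 20.9) and 11.5% (8.42 to 15.1), and their intervals did not overlap. Its level was 307.1 CPM (291.6 to 323.1; 1475 UMIs) against 276.2 CPM (252.0 to 302.1; 479 UMIs), a log2 ratio of -0.15 (ratio 0.810 to 0.998).

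Of the 9 members with at least 20 UMIs, 0 were called higher in the 4E-BP1-cKO library, where 4.32% of the 11784 genes compared were, and 1 (11.1%, Gclm) was called lower, against 11.3% of genes. These shares lay near those of all genes, and the call of Gclm was lost without its top cell. The median log2 ratio was -0.11 over the 9 members and -0.05 over all genes. Summed over the 10 genes, the libraries held 9941 and 3678 UMIs, 2070 CPM (2029.0 to 2111) in the control and 2121 CPM (2053 to 2190) in the 4E-BP1-cKO library, a log2 ratio of 0.04 (ratio 0.986 to 1.06). Nfe2l2, Sqstm1, Hmox1 and Gclc gave 88.5% and 89.6% of these UMIs, so the sum mostly reads these 4 genes. UMI counts of the 3′ kit are not scaled to a gene's length or capture, and levels are compared here between cells and libraries, not between genes.

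**Figure D1:**
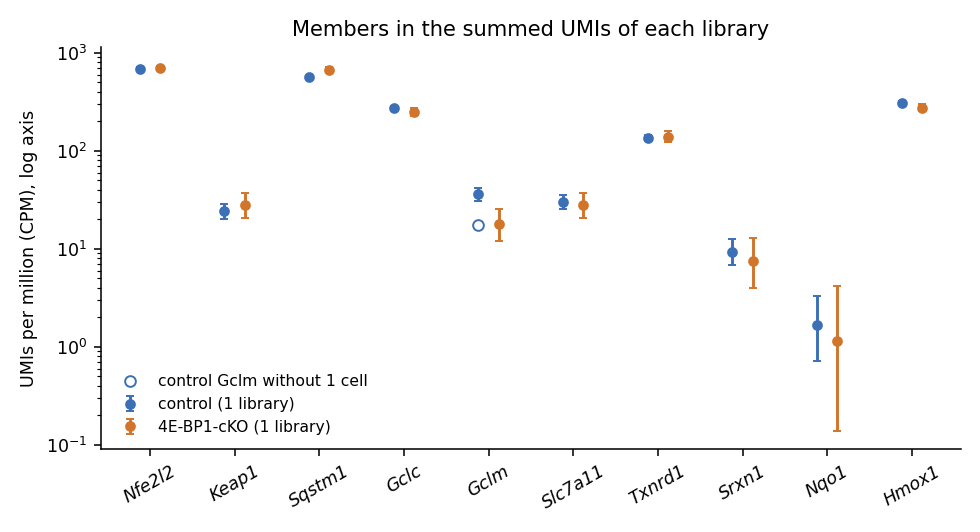
Level of each of the 10 members in CPM (log axis) in the kept cells of the control and the 4E-BP1-cKO library, 1 library each, with bars for exact 95% Poisson intervals; the open circle is control Gclm without the 1 cell that held 89 UMIs. The intervals overlap for every member except Gclm with that cell included and Sqstm1, which was at 561.9 and 675.2 CPM.

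Cells mostly held a few of the 10 genes at once, and how many followed the depth of the cell. In the control library 99 cells had UMIs of 0 members, 177 of 1, 276 of 2, 276 of 3, 195 of 4, 77 of 5, 38 of 6 and 9 of 7. In the 4E-BP1-cKO library the counts for 0 to 7 members were 56, 73, 106, 92, 60, 40, 11 and 7 cells, and no cell of either library had 8 or more. At least 3 members were found in 51.9% of control cells (48.9 to 54.8) and 47.2% of 4E-BP1-cKO cells (42.5 to 52.0). Once cells were thinned to equal depth, the shares were 10.6% and 10.1%. With cells cut into 4 groups of rising depth, the control share went 16.7%, 39.0%, 63.8% and 88.1%, and the 4E-BP1-cKO share 6.25%, 37.8%, 57.7% and 87.4%. Median depth went over those groups from 1219 to 8290 UMIs in the control and from 773 to 7988 in the 4E-BP1-cKO library.

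The members differed in how evenly their UMIs lay over cells. For each gene, the number of cells with a UMI was divided by the number expected if its UMIs had fallen on cells in proportion to depth, a measure added after other values were seen. Gclc reached 68.5% of the expected cells in the control and 67.7% in the 4E-BP1-cKO library, Txnrd1 65.9% and 67.4%, Hmox1 69.9% and 64.6%, and Slc7a11 57.6% and 64.1%. These 4 genes were thus concentrated in fewer cells, to a similar degree in both libraries. Nfe2l2 (83.9% and 87.9%) lay near the medians over all genes, 88.1% and 89.6%, and Keap1 (97.3% and 105%) lay above them. Sqstm1 (80.6% and 81.5%) lay between Nfe2l2 and the 4. Of the 8 members compared, 4 (50.0%) were at 80% or less in both libraries, against 10.4% of the 8015 genes compared. Those genes had at least 20 UMIs in each library and were not matched to the members by level. How the measure changes with level was not tested, so 50.0% and 10.4% are not a like comparison. Gclm was at 46.0% in the control, where 1 cell held most UMIs, and at 92.6% in the 4E-BP1-cKO library. Single cells held up to 62 UMIs of Gclc in the control and 26 in the 4E-BP1-cKO library, and the control cell with 62 had 14108 UMIs and all 8 microglial markers.

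**Figure D2:**
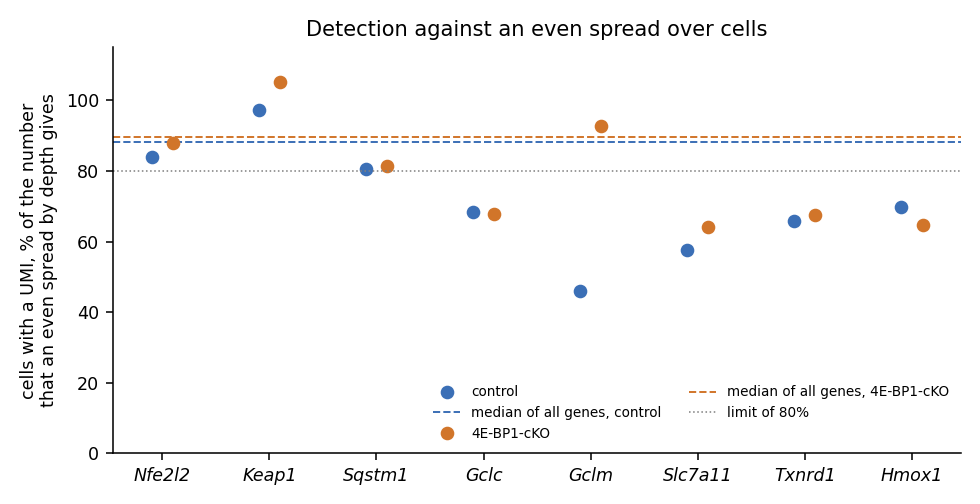
Cells with a UMI of each of 8 members as a percent of the cells expected from an even spread of its UMIs over depth, by library. The dashed lines are the medians over all genes (88.1% control, 89.6% 4E-BP1-cKO) and the dotted line is 80%: Gclc, Txnrd1, Hmox1 and Slc7a11 lie under it in both libraries.

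Co-detection was asked of all 45 pairs of members, within strata of UMIs per cell so that depth alone does not pair genes, and 35 pairs had an expected count of at least 5 cells. Observed cells reached 1.5 times the expected in 1 pair (2.86%), Srxn1 with Slc7a11, at 12 cells against 5.21 expected, while 2.21% of all gene pairs did. That ratio cannot grow large for genes found in most cells, so the odds ratio of finding both genes, stratified the same way and added after these values were seen, was also computed. It was at least 1.5 in 8 of the 35 pairs (22.9%), against 11.3% of all gene pairs, and its median was 1.18 over the member pairs and 1.03 over all pairs. Each of the 8 pairs held Srxn1 or Slc7a11. Over all genes they were paired with, Srxn1 reached 1.5 in 20.55% of pairs and Slc7a11 in 13.54%, both above the 11.3%. In 6 pairs it was at least 1.5 in each library taken alone, and the share of all gene pairs that reach this was not computed. For Srxn1 with Nfe2l2 and with Sqstm1 the 4E-BP1-cKO odds ratio had no finite value, since all 12 Srxn1 cells also held the partner. These 12 cells stood against 11.5 and 10.5 expected. Srxn1 and Slc7a11 shared only 3 cells in that library, against 1.36 expected.

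All pairs among Txnrd1, Srxn1 and Slc7a11 were in these 8, beside pairs of Srxn1 or Slc7a11 with Nfe2l2, Sqstm1 or Gclm. Txnrd1 and Srxn1 were found together in 28 cells against 19.5 expected (odds ratio 2.72; 2.20 in the control and 4.97 in the 4E-BP1-cKO library). Txnrd1 and Slc7a11 were found together in 55 cells against 37.7 expected (2.53; 2.75 and 2.04), and Srxn1 with Slc7a11 gave an odds ratio of 3.48. The other pairs were Nfe2l2 with Srxn1 (3.58; 45 cells against 40.7), Sqstm1 with Srxn1 (2.06), Nfe2l2 with Slc7a11 (1.82; 2.22 and 1.14), Gclm with Slc7a11 (1.70) and Sqstm1 with Slc7a11 (1.69; 1.63 and 1.92). Gclc, a glutathione gene like Slc7a11, was not found with it more often than depth gave (0.796), and the median odds ratio of Gclc with its partners was 0.949, against 2.06 for Srxn1 and 1.69 for Slc7a11. Keap1 and Srxn1 shared 3 cells against 7.10 expected (0.349), and Nfe2l2 and Gclm had an odds ratio of 0.571, which was 0.454 in the control and 1.22 in the 4E-BP1-cKO library. Cells of 1 library share their source, so these ratios describe the 2 libraries and carry no p-value.

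**Figure D3:**
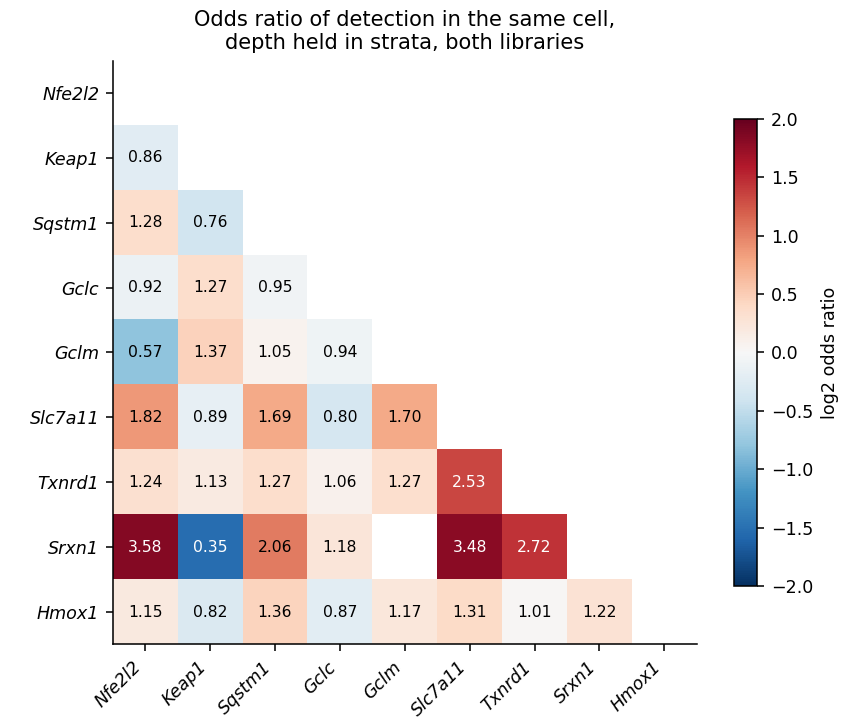
Odds ratio of finding a UMI of both genes in a cell, over strata of depth in both libraries together, for the pairs of 9 members; Nqo1 is left out for its few UMIs and the Gclm and Srxn1 pair, with fewer than 5 cells expected, is blank. The highest values lie in the rows of Srxn1 and Slc7a11, with 3.58 for Nfe2l2 and Srxn1 and 3.48 for Srxn1 and Slc7a11. The first comes from 45 shared cells against 40.7 expected, and the second from 12 against 5.21.

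The trio Txnrd1, Srxn1 and Slc7a11 lay mainly in 2 of the 9 clusters of cells, numbers 2 and 5. For Slc7a11 of the 4E-BP1-cKO library only cluster 2 was above the library level. Clusters were formed from all genes, members included, over both libraries together after an integration step that aligns them. The values by cluster are therefore a description, and likeness between the libraries over clusters is in part built in. Clusters 2 and 5 held 292 control cells (25.5%) and 127 4E-BP1-cKO cells (28.5%), with 29.9% and 38.9% of all UMIs. They held 68.4% and 69.7% of the UMIs of Txnrd1, 70.8% and 72.9% of those of Slc7a11, and 80% and 84.6% of those of Srxn1. The 84.6% was 11 of only 13 Srxn1 UMIs. Txnrd1 was at 350.3 CPM in cluster 2 and 289.5 CPM in cluster 5 of the control, and at 237.5 and 255.6 CPM in the 4E-BP1-cKO library. In the other clusters it was between 30.9 and 106.7 CPM in the control and between 12.4 and 155.0 CPM in the 4E-BP1-cKO library. Its 2 highest clusters were the same in both libraries, which with joint clusters is not a separate finding in each. Slc7a11 was at 72.1 and 70.5 CPM in these clusters of the control and at 96.6 and 25.8 CPM in the 4E-BP1-cKO library, where cluster 6 was at 25 CPM. In the 4E-BP1-cKO library cluster 2 held 24 of the 48 Slc7a11 UMIs, 10 of them in 1 cell, and cluster 5 held 11. The 25.8 CPM of cluster 5 lay below the 27.7 CPM of that whole library. At least 2 genes of the trio were found in 51 control and 20 4E-BP1-cKO cells, of which 41 and 18 were in these clusters, and all 3 in 9 and 3 cells. Of the 9 control cells, 1 carried oligodendrocyte markers and held 25 of the 271 control Txnrd1 UMIs of cluster 5. The pairs and the trio were not recomputed without cells with markers of another type. The odds ratios and the trio were also not recomputed without barcodes marked as doublets.

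The 2 clusters differed in their other genes and in depth. Cluster 2 was led, in order, by Bicdl2, Raver2, Slc24a1, Gm16853, Il10, an anti-inflammatory cytokine, and Alcam. Its cells had a median of 1.31% ribosomal protein UMIs in the control and 1.15% in the 4E-BP1-cKO library and of 2306 and 2210 UMIs per cell. Cluster 5 was led, in order, by the chemokine gene Cxcl2, Map2k3os, the metallothionein gene Mt2, Gclm, Tnfrsf12a, Mir155hg and the metallothionein gene Mt1. The lipase gene Lpl came further down. Cells of cluster 5 had medians of 9.37% and 9.96% ribosomal protein UMIs and 8926 and 7679 UMIs per cell. Ranked by fold against all other cells, Slc7a11 was gene 26 of 3469 in cluster 2 and Srxn1 gene 25 of 7076 in cluster 5, and Txnrd1 ranked 86 and 60. Gclm was gene 4 in cluster 5 through the control cell with 89 UMIs, and without that cell it was gene 1282 of 7039, at 22.9 CPM against 16.4 CPM in other cells. With odds ratios formed within clusters and 3 levels of depth, also added after values were seen, 8 of the 35 pairs (22.9%) were at 1.5 or more, against 15.2% of all gene pairs, with medians of 1.29 and 1.11. There Txnrd1 with Srxn1 came to 1.19, Txnrd1 with Slc7a11 to 1.97, Srxn1 with Slc7a11 to 2.10, Nfe2l2 with Srxn1 to 2.501 and Hmox1 with Sqstm1 to 1.53. Of the trio, Txnrd1 and Srxn1 were thus found together little more often than their clusters gave.

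**Figure D4:**
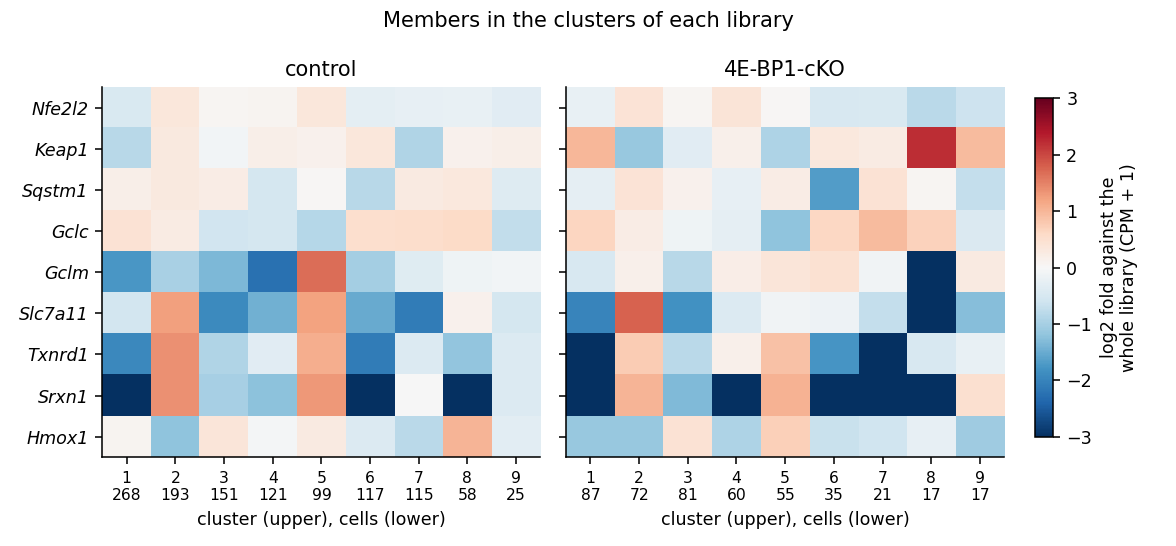
Level of 9 members in each of the 9 clusters of each library as the log2 fold against the whole library (CPM with 1 added, colours limited to -3 and 3), with the number of cells under each cluster. Txnrd1, Srxn1 and Slc7a11 are above the library level in clusters 2 and 5 of the control, and Txnrd1 and Srxn1 also in those of the 4E-BP1-cKO library; control Gclm in cluster 5 includes the 1 cell with 89 UMIs.

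Cell states were first compared by the share of UMIs from ribosomal protein genes, in classes under 2.5%, 2.5 to 8%, 8 to 15% and 15% or over, which are ranges of a measure and not cell types. They held 620, 383, 114 and 30 control cells and 195, 163, 72 and 15 4E-BP1-cKO cells, and 109, 32 and 7 control and 35, 25 and 4 4E-BP1-cKO cells lay within 0.5 points of a cut. Gclc was lower in cells rich in ribosomal protein mRNA in both libraries: over the classes it went 355.2, 278.2, 142.0 and 96.1 CPM in the control and 358.4, 266.9, 92.9 and 185.3 CPM in the 4E-BP1-cKO library. Over 8% against under 2.5%, the log2 fold of Gclc was -1.39 in the control (ratio 0.313 to 0.456) and -1.71 in the 4E-BP1-cKO library (0.217 to 0.418). Txnrd1 went the other way, with a log2 fold of 0.65 (1.31 to 1.90) and 0.90 (1.30 to 2.75), although it was lowest in the control class of 2.5 to 8%, at 82.3 CPM. Without its top cell, which in the control carried oligodendrocyte markers, the log2 fold of Txnrd1 was 0.49 and 0.73, under 1.5-fold in the control.

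Of the 8 members with enough UMIs, 1 (12.5%, Txnrd1) was called higher in both libraries in cells over 8%, against 16.4% of the 8224 genes compared, and 1 (12.5%, Gclc) was called lower, against 24.1%. Neither share was above that of all genes. The median log2 fold over the members was 0.44 in the control and -0.16 in the 4E-BP1-cKO library, and over all genes -0.23 and -0.26. Slc7a11 went 33.7, 16.7, 38.9 and 114.1 CPM over the classes in the control and 56.5, 17.4, 18.1 and 12.4 CPM in the 4E-BP1-cKO library, with few cells behind the highest value of each. Nfe2l2 had log2 folds of 0.27 and -0.21 and Sqstm1 of -0.38 and -0.26. The summed level was 2146, 1968, 2168 and 2066 CPM over the classes in the control and 2192, 2164, 2045 and 1655 CPM in the 4E-BP1-cKO library, log2 folds of 0.00 and -0.15. The second became 0.04 when levels were set against UMIs outside ribosomal protein and mitochondrial genes, so its direction rests on the scaling. Median depth differed between the classes, from 2356 to 7244 UMIs in the control and from 1898 to 4810 in the 4E-BP1-cKO library, and Malat1, a nuclear RNA, went from 48643 to 16518 CPM and from 50705 to 24046 CPM; their part in these folds was not tested.

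Within the class under 2.5%, Hmox1 had the largest log2 ratio between the libraries of the 8 members compared. It had 439 UMIs (264.3 CPM) in the control and 52 UMIs (113.0 CPM) in the 4E-BP1-cKO library, a ratio of 0.430 (0.314 to 0.571), and was found in 202 (32.6%) and 33 (16.9%) cells. In the class of 2.5 to 8% the ratio of Hmox1 was 1.13 (0.974 to 1.30), in that of 8 to 15% 0.851 (0.691 to 1.04) and at 15% or over 0.847 (0.484 to 1.43). These 3 intervals include no difference. Clusters 1, 2, 7 and 8 each had a median ribosomal protein share under 2.5% in both libraries. Hmox1 in control and 4E-BP1-cKO cells was at 324.8 and 124.3 CPM in cluster 1. It was at 619.5 and 232.7 CPM in cluster 8, the second from 7 UMIs. Clusters 2 (132.1 and 124.8 CPM) and 7 (173.5 and 182.3 CPM) showed little difference. Cluster 8, with the highest control level, was led by Bag3, Wdr95 and Hsph1. Why the clusters differed was not tested. In the class under 2.5%, 1 of 8 members (12.5%, Hmox1) was called lower in the 4E-BP1-cKO library, against 15.4% of the 8702 genes compared, and 2 (25%, Keap1 and Slc7a11) were called higher, against 8.84%. Both calls were lost without the cell of the class with the most UMIs of the gene in each library: Keap1, with 36 and 17 UMIs and a ratio interval of 0.898 to 3.11, came to a ratio of 1.46 (0.737 to 2.84), and Slc7a11 to 1.15 (0.614 to 2.06). Hmox1 was at 0.401 (0.289 to 0.540) without those cells, and Txnrd1 then passed the limit as well, at 0.6375 (0.444 to 0.888). Over the 4 classes Txnrd1 had ratios of 0.691 (0.491 to 0.947), 1.61 (1.26 to 2.07), 0.902 (0.687 to 1.17) and 0.435 (0.174 to 0.942), lower in all but the class of 2.5 to 8%. Sqstm1 had ratios of 1.13, 1.29, 1.28 and 0.990 over the 4 classes.

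The second state was the share of immediate early genes, 17 genes such as Fos and Jun that are induced within minutes by stimulation or by dissociation, with cells of both libraries cut together into 3 equal groups. The low, middle and high group held 430, 407 and 310 control cells and 101, 124 and 220 4E-BP1-cKO cells. Hmox1 was higher with more early gene expression: 218.9, 286.2 and 403.3 CPM in the control and 85.6, 184.2 and 366.2 CPM in the 4E-BP1-cKO library, log2 folds of high over low of 0.88 (ratio 1.61 to 2.11) and 2.08 (2.78 to 6.91). Gclc was lower, at 344.5, 299.4 and 187.7 CPM and at 474.8, 283.8 and 175.2 CPM, log2 folds of -0.87 and -1.43. In the low group of the 4E-BP1-cKO library 1 cell held 26 of the 122 Gclc UMIs, and without the top cell the second fold was -1.09. In the low group of the control 1 cell held 54 of the 499 Gclc UMIs. The first fold was not computed without it, since the top control cell, with 62 UMIs, lay in the middle group. The share of cells with Gclc went from 40.5% in the low to 35.8% in the high group of the control. In the 4E-BP1-cKO library it went the other way, from 27.7% to 37.3%. Nfe2l2 (0.55 and 0.62) and Sqstm1 (0.49 and 1.13) were also higher in the high group. Txnrd1 was at 144.3 and 119.6 CPM in the low and high group of the control and at 93.4 and 154.6 CPM in the 4E-BP1-cKO library.

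Called in both libraries were 1 of 8 members higher in the high group (12.5%, Hmox1), against 5.33% of the 9118 genes compared, and 1 lower (12.5%, Gclc), against 9.63%. A single gene in 8 is the smallest share above 0 that could be reached. The summed level gave log2 folds of 0.31 and 0.49, and the medians were -0.11 and 0.18 over the members and -0.14 and -0.13 over all genes. Between the libraries, Hmox1 had a ratio of 0.394 (0.242 to 0.603) in the low group, 0.645 (0.505 to 0.812) in the middle and 0.908 (0.798 to 1.03) in the high group, so its lower level in the 4E-BP1-cKO library was largest where early genes were lowest. Sqstm1 had a ratio of 0.792 (0.628 to 0.987) in the low, 1.07 in the middle and 1.24 (1.13 to 1.36) in the high group. The higher Sqstm1 level of the 4E-BP1-cKO library was therefore found in the high group, and in the low group the direction was the opposite. From the low to the high group heat shock genes went from 3740 to 9087 CPM in the control and from 2191 to 5448 CPM in the 4E-BP1-cKO library, and median UMIs from 2672 to 5004 and from 1880 to 3795; their part in these folds was not tested.

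**Figure D5:**
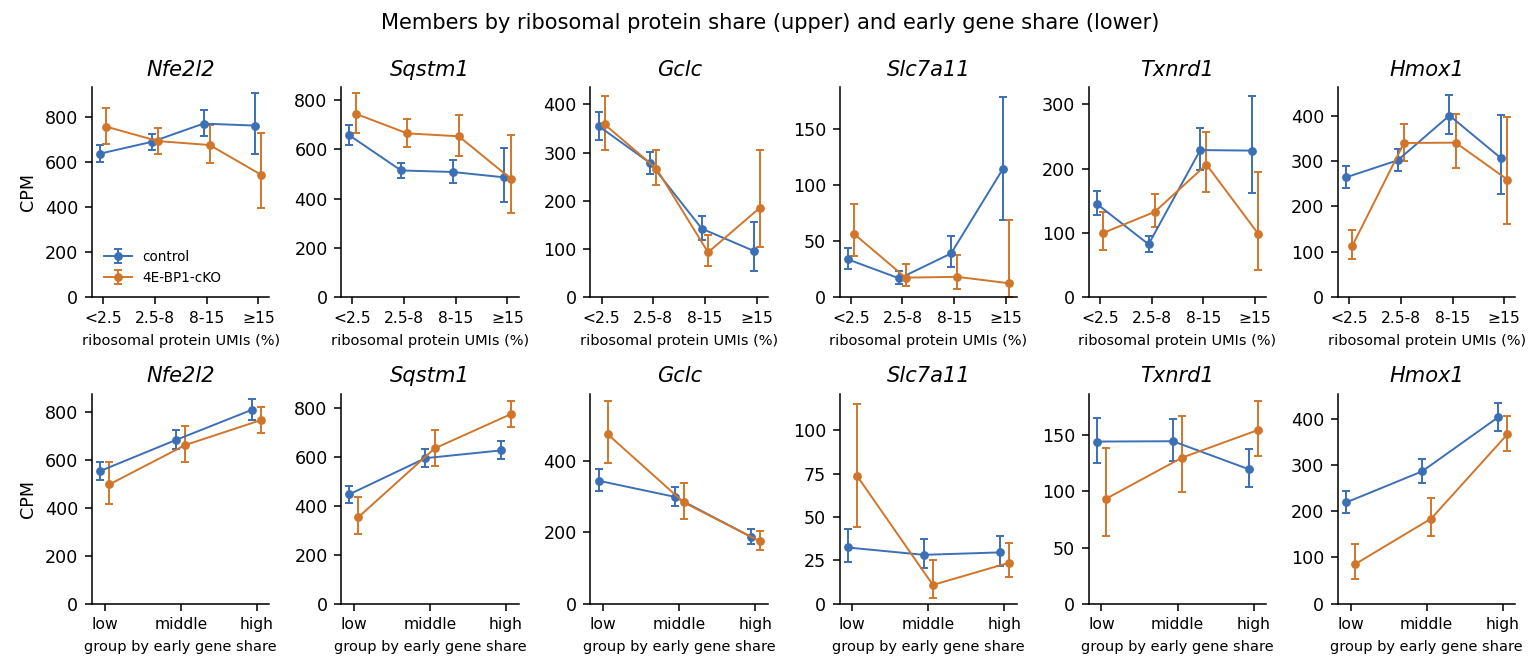
Level (CPM) of 6 members in the control and 4E-BP1-cKO libraries over classes of ribosomal protein share (upper row) and the low, middle and high groups of early gene share (lower row), with exact 95% Poisson intervals. Gclc is lower over the classes up to 8 to 15% and from the low to the high group, and Hmox1 is higher from the low (218.9 and 85.6 CPM) to the high group (403.3 and 366.2 CPM).

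Beyond the 10 genes, a list of 46 further genes of the pathway was read, of which 41 had at least 20 UMIs. Of these, 0 were called higher in the 4E-BP1-cKO library and 4 (9.76%) lower, beside 4.32% and 11.3% of all genes, and the median log2 ratio was 0.07. The partners and competitors of NRF2 differed little: Bach1, a repressor of antioxidant response elements that haem inactivates, was at 388.3 and 409.4 CPM, Bach2 at 302.1 and 269.8, Cul3 at 181.1 and 179.9 and Nfe2l1 at 62.04 and 66.3 CPM. Of the small MAF genes, Maff was at 77.7 and 98.0 CPM (log2 ratio 0.33), Mafg at a log2 ratio of 0.28 (1.02 to 1.45) and Mafk at 47.5 and 46.7 CPM (-0.02, 0.754 to 1.27). Cat, which encodes catalase, had 125 and 23 UMIs, a log2 ratio of -0.92 (0.312 to 0.7995), Blvra, which turns the biliverdin made by haem oxygenase into bilirubin, -0.79, and Sod1, a superoxide dismutase, -0.40 (0.612 to 0.928). Sod1 stayed within the 1.5-fold limit, and the 4 genes called lower were Cat, Blvra, Ggct (-1.13) and Ugdh (-0.67). Ggct and Ugdh were named after their values were seen. Ggct had only 36 and 5 UMIs, and the ratio interval of Ugdh, 0.335 to 1.03, includes no difference. Txn1, thioredoxin itself, had 143 and 70 UMIs and a log2 ratio of 0.43 (1.004 to 1.82), Gpx1, a glutathione peroxidase, 976 and 432 UMIs and 0.29, and Cbr1 and G6pdx 0.43 and 0.35.

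By state, 36 genes of the list had 10 UMIs in each library over the classes compared. Of these, 13 (36.1%) were called higher in cells over 8% ribosomal protein UMIs in both libraries, against 16.4% of all genes, and 1 (2.78%), Bach2, lower (-0.93 and -0.94), against 24.1%. Gpx1 had log2 folds of 2.02 and 2.44 there, and the ferritin genes Fth1 (2.42 and 2.45) and Ftl1 (1.97 and 2.25), chosen after their values were seen, were of similar size; ferritin reads may be shared with pseudogene copies. These folds differ from those of Gclc, and Hmox1, of the same haem and iron branch, was at 0.54 and 1.52. In the high group of early genes 4 of 38 (10.5%) were called higher in both libraries, against 5.33% of all genes, among them Maff at 1.13 and 2.44, and 2 (5.26%) lower, against 9.63%. Across the 8 combinations of class and library, the genes most like Sqstm1 of 4887 compared, by Pearson's r over these 8 points, were Rnf213 (0.960), Lrrc8a (0.958), Amz2 (0.948), Myo1e (0.943) and Atp6v1a (0.943), and those most like Nfe2l2 ran from Parp9 (0.948) to Gusb (0.914). The points share libraries and depth, and the genes named are the highest of 4887, some with few UMIs (Amz2 205), so the r values are a description. How high r goes through such a choice alone was not tested.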

How the data were processed

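Lumbar spinal cord microglia were sorted and profiled by 10x Chromium 3′ single-cell RNA sequencing, 1 library per genotype. The submitters' processing notes name Cell Ranger 8.0.1 and mm10, and the authors deposited the filtered matrices of raw counts, with no normalization, for 1216 control and 474 4E-BP1-cKO barcodes (4914298 and 1769927 UMIs). Whether intronic reads were counted and which annotation release was used are not given in the sources used here. The deposited barcodes were already called as cells by that software, and a gene's count is a number of UMIs per cell.

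Barcodes needed over 300 detected genes, with mitochondrial genes taking less than 5% of UMIs. Scrublet (scanpy 1.11.5) marked 4 and 11 kept barcodes as doublets. Marked barcodes stayed in, and an alternative left them out. For pairs that alternative covered observed over expected cells, not the odds ratio. The paper removed doublets with scDblFinder under the same limits and kept fewer cells of both genotypes. UMIs were summed per library, cell class or cluster and given as CPM, with a pseudocount of 1 CPM in log2 ratios, exact Poisson intervals for levels, conditional Poisson intervals for ratios and Clopper-Pearson intervals for shares. These cover counting error only, and a count of 0 allows up to 3 UMIs, 0.625 CPM in the control and 1.73 CPM in the 4E-BP1-cKO library. Genes needed 20 UMIs over both libraries, or 10 in each for comparisons of states. Co-detection used 10 strata of UMIs per cell within each library. Cells of both libraries were clustered together with Seurat 5.3.0 and sctransform 0.4.2, after RPCA integration of the libraries (20 components, resolution 1.4). Python 3.11.15, numpy 2.4.6, scipy 1.17.1, pandas 2.3.3 and R 4.3.3 were used, with edgeR 4.0.16 for TMM factors alone and no count model. The scripts were tested on simulated data.

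All 10 members were named. Of the wider list the text names the regulators Bach1, Bach2, Nfe2l1, Maff, Mafg, Mafk and Cul3 and the 4 highest and 4 lowest library ratios among other genes with at least 100 UMIs, of which Esd had a log2 ratio of -0.22. The members, the lists and the named-gene rule were chosen with earlier results of these data known. Gene coordinates and promoters came from RefSeq (GRCm38.p6). Alternatives covered the cell filters, doublets, TMM factors, the total used for scaling, the pseudocount, depth strata, class cuts and averages over classes. The deletion of Eif4ebp1 was not checked, since 3′ reads lie outside the deleted exon.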

Additional observations from a re-analysis of the deposited data

Results flagged for a closer look

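Slc7a11, the cystine transporter gene, moved in opposite directions between cell states in the libraries. In cells over 8% against cells under 2.5% ribosomal protein UMIs its log2 fold was 0.58 in the control (ratio 1.02 to 2.24) and -1.67 in the 4E-BP1-cKO library (0.118 to 0.688). It was listed for this difference of direction, which was not tested, since each genotype had 1 library. Without the cell with the most Slc7a11 UMIs in each library the log2 folds were 0.22 (0.762 to 1.78) and -0.98 (0.182 to 1.22), and both intervals then include no difference. Of the 48 Slc7a11 UMIs in the 4E-BP1-cKO library, 1 cell held 10.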

How the results depend on the processing

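With 1 library per genotype nothing here has a replicate, and no library could be left out. No paired analysis was possible because each genotype had 1 library and no test was made. Members called at least 1.5-fold lower in the 4E-BP1-cKO library numbered 1 of the 10, and 2 with more than 500 detected genes, 2 as an average over classes of ribosomal protein share, 2 without cells with markers of another type and 0 without the top cell of each member. The added gene was Nqo1, which is under that minimum, so with the minimum applied the count stayed at 1 there. For the class average it was Slc7a11 (-0.85), with -3.11 from 19 and 1 UMIs in the class of 15% or over. The last pair of alternatives was chosen after seeing the data. Within cells under 2.5% ribosomal protein UMIs, leaving out the top cell of each member, also chosen then, took the members called higher from 2 to 0 and those called lower from 1 to 2. The summed log2 ratio was -0.0595 as an average over the 4 classes with equal weight, against 0.04. From the lowest class to the highest it was 0.03, 0.14, -0.08 and -0.32, the last from only 30 control and 15 4E-BP1-cKO cells. The share of cells with at least 3 members was 55.0% in the control and 52.2% in the 4E-BP1-cKO library with more than 500 detected genes, and 10.6% and 10.1% after thinning, so it reads depth. For at least 2 members it was 75.9% and 71.0%, and for at least 4, 27.8% and 26.5%. Co-detected pairs numbered 1, but 2 with a mitochondrial limit of 10%, 3 with 5 strata, and 8 by the odds ratio, also within clusters and 3 levels of depth, both chosen after seeing the data. The summed log2 fold of cells over 8% against under 2.5% ribosomal protein UMIs in the control was 0.00, and 0.17 when ribosomal protein and mitochondrial genes were left out of the total, 0.0836 with cuts at 3, 9 and 17% and 0.14 between clusters. In the 4E-BP1-cKO library it was -0.15, and 0.0381 with that total. Within cells of 2.5 to 8% the log2 fold between the high and low group of early genes was 0.71 in the control and 0.68 in the 4E-BP1-cKO library, where all cells gave 0.31 and 0.49. The other 52 recomputed summary values and 86 of 110 recomputed values of single genes stayed within counting error or within 1.5 times the count, and no called value changed its sign. Most of the moved values of single genes were shares of cells after thinning. As an average over classes, the log2 ratio changed sign for Nfe2l2 (0.02 to -0.11), Gclc (-0.14 to 0.07) and Txnrd1 (0.03 to -0.30). That of Hmox1 went from -0.15 to -0.38. The cause of each shift was not tested.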

Other observations

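The barcodes that the filters removed, 69 in the control and 29 in the 4E-BP1-cKO library, held 110736 and 35595 UMIs. In them the 10 genes summed to 1951 CPM (1699 to 2229) and 1461 CPM (1091 to 1916), against 2070 and 2121 CPM in the kept cells. Slc7a11 had 25 and 9 UMIs in the removed barcodes, against 144 and 48 in the kept cells, which held far more UMIs.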
